A study of Mus musculus with 14 samples.

Results

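Gene expression was compared between CD4 T cells cultured with antibodies to CD3 and CD28 together with TRAIL (CD3/CD28 plus TRAIL, 3 libraries) and CD4 T cells left in medium (2 libraries), which make up 5 of the 14 libraries of the series. A gene was included when its mean level was at least 1 TPM (transcripts per 1000000, a level scaled to gene length and to the size of the library) over the 8 culture libraries, and 14035 of the 20875 genes of the culture table passed. The other 3 culture libraries, cells given the antibodies alone (CD3/CD28), served to tell which part of the response to the antibodies was still present with TRAIL and which differences from medium lay outside both groups. All 8 culture libraries are labelled primary CD4 T cells from lymph node of wild type C57BL/6 mice kept in RPMI; the labels print a dose of 1 mg/ml for the antibodies and one of 10 ug/ml for TRAIL. No group received TRAIL without the antibodies, so the effect of TRAIL on resting cells cannot be told apart from its effect on stimulated ones. The time in culture is not given in the sources used here, and no label says that the libraries of a group were separate cultures or animals, so p-values measure only the spread between these libraries. The 6 libraries from treated mice were not used here.

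TRAIL is a ligand of the tumour necrosis factor family that, in mice, binds the death receptor encoded by Tnfrsf10b and can start caspase-dependent death, while decoy receptors bind it without carrying a death signal. Antibodies to CD3 and CD28 stand in for antigen and costimulation, and normally move a resting T cell towards cytokine production, growth and division. Interferons act through JAK kinases and STAT transcription factors on genes of antiviral defence, antigen presentation and chemokine production. Interferon gamma, made by activated T cells and natural killer cells, and the type I interferons use overlapping but distinct sets of these factors, with STAT2 and IRF9 serving the type I branch.

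In units of 1000000 reads, the depth recovered from the TPM values was 29.5 and 26.3 in medium, 27.6 to 32.3 with the antibodies alone and 23, 26.5 and 31.0 with TRAIL, so a gene of median length held 20.4 to 35.6 reads per TPM. The 3 TRAIL libraries were close to each other, with a median absolute difference of 0.077 to 0.082 on the log2 scale per gene, and the medium pair differed by 0.093. CD3/CD28 replicate 1 stood apart from CD3/CD28 replicates 2 and 3 (0.242 and 0.228, against 0.07 between the latter). All 8 libraries share 1 estimate of the spread, so this library also widens the error of the comparison with medium, and the main counts are given with and without it. The libraries also held transcripts of cells other than CD4 T cells: Cd4 was at 689 and 676 TPM in medium, and so were the B cell genes Cd79a at 249 and 254 TPM and Ighm at 1795 and 1842 TPM and the macrophage gene Lyz2 at 720.0 and 774 TPM. In such bulk libraries fewer cells of a type and less RNA per cell cannot be told apart.

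With the antibodies and TRAIL together, 1017 genes were higher than in medium (7.25% of the 14035 tested) and 1394 were lower (9.93%), at a Benjamini-Hochberg adjusted p of at most 0.05 from limma on log2(TPM + 1). Most differences were small: 2003 of the 2411 called genes (83.1%) differed by less than 1 on the log2 scale, 234 were higher by at least 1 (1.67% of tested genes) and 174 were lower by at least 1 (1.24%). The antibodies alone, tested in the same fit against the same medium libraries, left 3857 genes higher than medium (27.5%) and 6884 lower (49.0%), and 5100 of these calls (36.3% of tested genes) reached a log2 difference of 1. The median gene differed from medium by 0.18 in absolute log2 value with TRAIL and by 0.74 without it. The median signed difference over all genes was -0.06 with TRAIL and -0.32 with the antibodies alone, so list medians below are read against these. Without CD3/CD28 replicate 1 the counts were 2063 higher (14.7%) and 3353 lower (23.9%). List counts with TRAIL below are read against these shares of all tested genes, 7.25% and 9.93%, or 14.7% and 23.9% without that library. List counts with the antibodies alone are read against the shares of that comparison, 27.5% higher and 49.0% lower. Scaling the libraries by the median of ratios moved the split to 1281 higher and 1130 lower genes, that is from 42.2% to 53.1% of calls being higher. Leaving out medium replicate 1 gave 467 and 448 calls and leaving out medium replicate 2 gave 554 and 555. Among the genes named below, Amz1, Bcl2l1, Birc2, Birc3, Ccnd2, Dgka, Gpr162, Hk2, Ifngr1, Irf2, Mir7063, P4ha2, Rnf213, S1pr1, Spic, Tfrc and Trav13n-3 lost their call against medium when either medium library was left out. Bak1, Btla, Ccl4, Cd5, Fos, Gm23864, Mcl1, Tnfaip3 and Tnfrsf26 lost it without replicate 1 only, and Ccl2, Il13 and Il2ra without replicate 2 only.

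**Figure D1:**
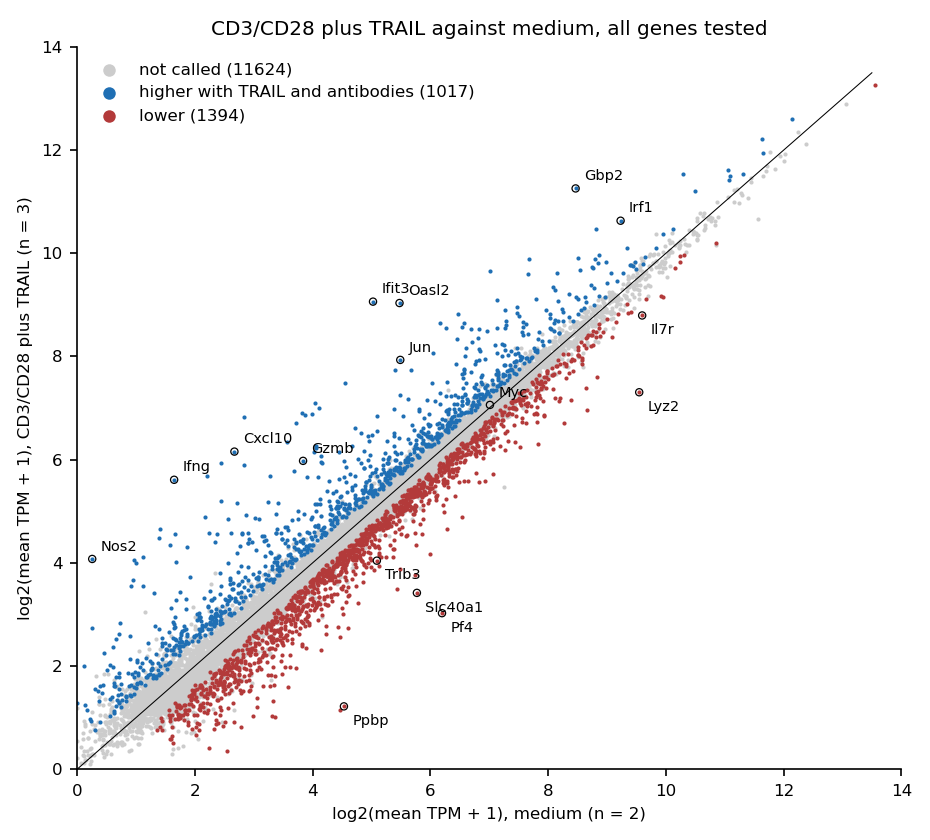
Mean level in medium (n = 2, x axis) against mean level with CD3/CD28 plus TRAIL (n = 3, y axis), both as log2(TPM + 1), 1 point per gene tested and the diagonal for equal levels. The 1017 genes called higher (blue) include Ifit3, Ifng, Nos2 and Gbp2 far above the diagonal, the 1394 called lower (red) include Ppbp, Pf4 and Slc40a1 far below it, and Myc lies on it.

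Read by the order of the group means, 515 of the 1017 higher genes were higher still with the antibodies alone, so that their mean with TRAIL lay between medium and full stimulation, and 502 had their highest mean with TRAIL. Of the 1394 lower genes, 1137 were lower still with the antibodies alone and 257 had their lowest mean with TRAIL. A stricter count asked for a gene to pass the test against both other groups in the same direction: 448 genes lay above both (3.19% of tested genes) and 174 below both (1.24%). Without CD3/CD28 replicate 1 these became 825 (5.88%) and 565 (4.03%). The 25 largest rises against medium were dominated by genes known from the interferon response (Ifit3, Ifit3b, Oasl2, Cxcl10, Ifi44, Cxcl9, Ifi205, Oas2, Isg15, Ifit1, Gbp10, Gbp11, Gbp2 and Rsad2). Also among the 25 were Ifng itself, Nos2, Serpina3f, Ptgs2, Procr, Slc7a2, Inhba, Gm47242, Gm4951, Gm5970 and Gm6545. The 25 largest falls were led by genes of platelets and myeloid cells, described at the end.

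**Figure D2:**
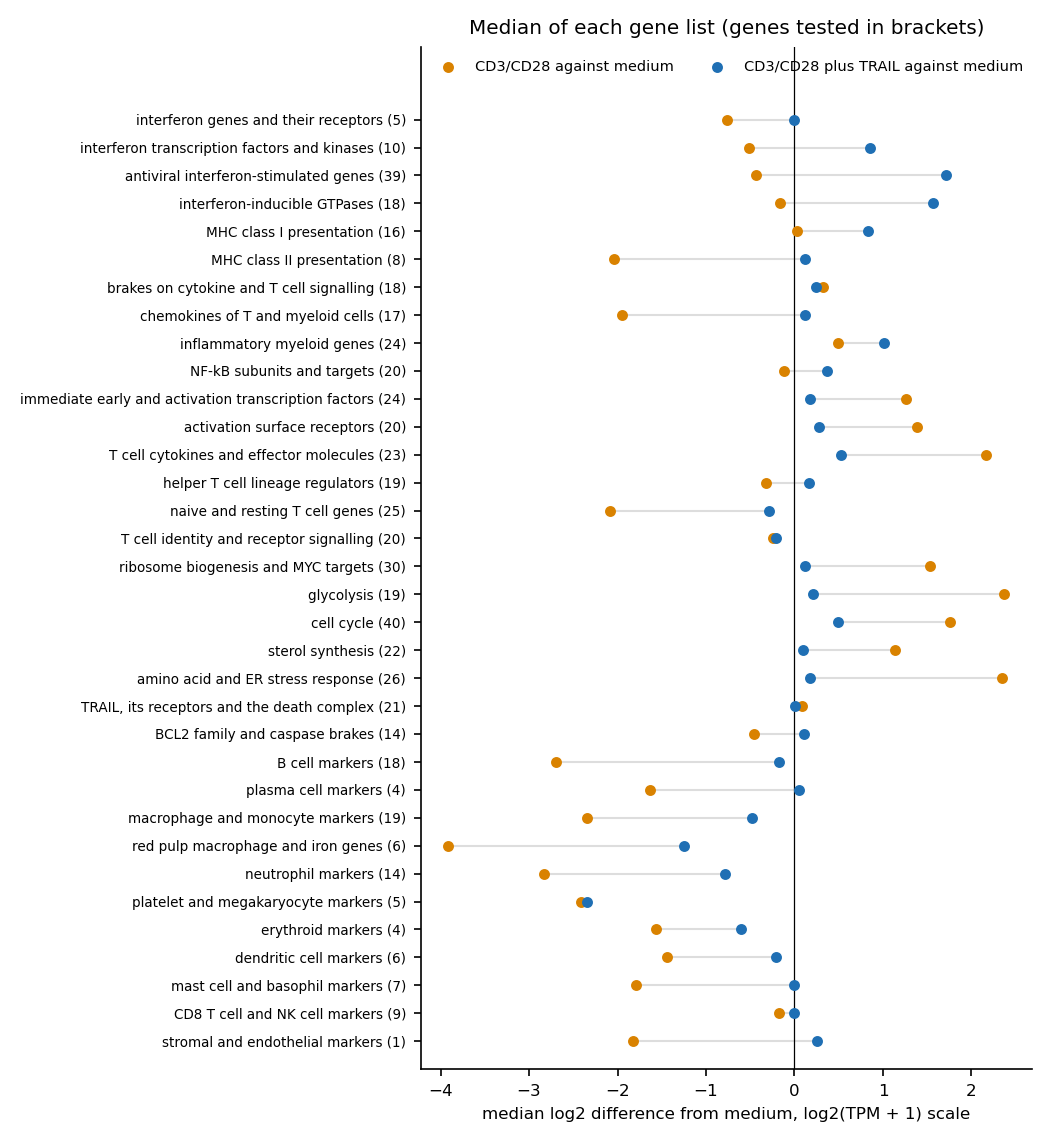
Median log2 difference from medium, on the log2(TPM + 1) scale, of the tested members of each gene list for CD3/CD28 plus TRAIL (blue) and for CD3/CD28 alone (orange). Both comparisons use the same 2 medium libraries. The lists of interferon-stimulated genes lie at 1.71 and 1.57 with TRAIL and at -0.43 and -0.16 without it, while glycolysis, ribosome biogenesis and amino acid response lie at 0.12 to 0.21 with TRAIL and at 1.53 to 2.37 without it.

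Promoters of interferon-stimulated genes that rose are shown because interferon and NF-kB signals are known to act through short sequences there. RefSeq windows of build GRCm38.p6, from 250 bases before to 50 after the gene start, are printed 5′ to 3′ on the strand of the gene for 5 of these genes and for Irf1, a regulator of the response. Capitals mark every match to the core of the interferon-stimulated response element (GAAA and GAAA with any 2 bases between), of the gamma-activated site bound by STAT dimers (TTC and GAA with any 3 bases between) or of the kB site bound by NF-kB (GGGA and TTCC with any 2 bases between), searched on both strands.
Ifit3 (chr19:34583279-34583578, plus strand): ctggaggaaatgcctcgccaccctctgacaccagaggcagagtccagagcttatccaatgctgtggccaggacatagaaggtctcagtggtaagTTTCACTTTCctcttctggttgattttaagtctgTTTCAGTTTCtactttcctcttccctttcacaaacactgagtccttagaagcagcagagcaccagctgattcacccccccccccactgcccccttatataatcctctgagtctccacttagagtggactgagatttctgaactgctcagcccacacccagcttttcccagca
Isg15 (chr4:156200769-156201068, minus strand): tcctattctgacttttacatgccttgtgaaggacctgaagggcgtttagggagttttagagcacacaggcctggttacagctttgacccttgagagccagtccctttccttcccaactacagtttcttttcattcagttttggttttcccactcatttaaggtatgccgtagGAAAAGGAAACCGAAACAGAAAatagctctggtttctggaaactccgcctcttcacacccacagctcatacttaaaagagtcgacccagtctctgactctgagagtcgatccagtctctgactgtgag
Cxcl10 (chr5:92348840-92349139, minus strand): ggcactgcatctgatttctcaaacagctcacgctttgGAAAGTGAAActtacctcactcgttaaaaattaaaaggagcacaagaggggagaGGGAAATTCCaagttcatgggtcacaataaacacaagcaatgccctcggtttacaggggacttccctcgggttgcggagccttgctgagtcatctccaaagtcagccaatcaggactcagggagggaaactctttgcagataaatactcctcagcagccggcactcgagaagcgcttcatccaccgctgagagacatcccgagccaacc
Gbp2 (chr3:142620413-142620712, plus strand): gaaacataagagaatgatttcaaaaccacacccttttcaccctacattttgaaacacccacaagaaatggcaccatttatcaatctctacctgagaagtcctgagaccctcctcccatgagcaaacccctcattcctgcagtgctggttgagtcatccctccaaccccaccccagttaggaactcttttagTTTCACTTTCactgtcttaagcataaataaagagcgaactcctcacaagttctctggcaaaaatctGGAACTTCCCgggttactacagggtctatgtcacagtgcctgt
Gbp5 (chr3:142496684-142496983, plus strand): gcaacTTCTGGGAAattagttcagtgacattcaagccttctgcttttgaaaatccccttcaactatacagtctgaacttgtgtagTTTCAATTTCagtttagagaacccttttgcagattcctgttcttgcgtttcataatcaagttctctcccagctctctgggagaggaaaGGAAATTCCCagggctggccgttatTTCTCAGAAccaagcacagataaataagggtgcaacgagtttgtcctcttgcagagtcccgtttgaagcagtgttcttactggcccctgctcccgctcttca
Irf1 (chr11:53769764-53770063, plus strand): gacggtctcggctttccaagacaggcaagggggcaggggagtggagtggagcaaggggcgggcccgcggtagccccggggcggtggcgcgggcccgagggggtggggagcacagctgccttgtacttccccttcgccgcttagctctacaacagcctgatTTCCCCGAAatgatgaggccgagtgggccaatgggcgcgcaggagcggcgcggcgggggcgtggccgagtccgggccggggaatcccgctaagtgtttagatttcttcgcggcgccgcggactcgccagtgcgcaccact

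Counted from the gene start, Ifit3 holds the response element core at -156 and -122. Isg15 holds 3 copies that overlap each other, at -78, -72 and -66. Cxcl10 holds the same core at -213 and a kB core at -159, and Gbp2 holds them at -59 and at 8. Gbp5 holds all 3 kinds, with gamma-activated site cores at -245 and -52, the response element at -165 and a kB core at -77. The start used for the Gbp5 window lies inside the annotated gene, which spans chr3:142493978-142522344, and not at its first base. Irf1, whose table entry has 2 start sites, holds a gamma-activated site core at -90 of the first and none of the 3 cores at the second. Windows were found for 9546 of the 14035 tested genes. Among them the response element core occurred in 4.02% of all tested genes, in 13% of those higher than medium, in 28.5% of those higher by at least 1 on the log2 scale, in 22.6% of those above both other groups and in 3.52% of those lower. The gamma-activated site core occurred in 8.45%, 11.3%, 18.2%, 13.3% and 8.32% of the same sets, and the kB core in 1.82%, 3.63%, 6.06%, 5.57% and 1.66%. Over all 32851 windows of the table the shares were 3.44%, 8.3% and 1.47%. The kB core of Cxcl10 and the other matches are letter matches, and no binding was measured in these libraries.

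Transcripts of the interferon pathway were described from its ligands to its effectors, and no interferon protein or signalling was measured. Ifng, the 1 interferon gene among the 5 genes tested, was at 2.25 and 2 TPM in medium, 99.2, 70.8 and 65.3 TPM with the antibodies alone and 38.7, 48.4 and 56.3 TPM with TRAIL. Its rise over medium was 3.95 ± 0.20 SE on the log2 scale (limma adjusted p = 1.33e-05), and it was lower than with the antibodies alone (-0.70, adjusted p = 0.0077). Of the receptor genes, Ifngr1 was slightly higher than medium, at 915 and 911 TPM against 1067, 1101 and 1129 TPM with TRAIL (0.27 ± 0.065, adjusted p = 0.0272), while the antibodies alone took it to 169, 183 and 164 TPM. Ifnar1, Ifnar2 and Ifngr2 did not pass the test against medium, with log2 differences of 0.0038, -0.032 and -0.12, and 1 of the 5 genes was called lower without CD3/CD28 replicate 1.

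The transcription factors downstream rose together. Of 10 factors and kinases tested, 7 were higher than medium and 0 lower, with a median of 0.85, against 2 higher and 6 lower with the antibodies alone (median -0.51). Leaving out CD3/CD28 replicate 1 gave 8 higher and 2 lower. Irf7, the factor that amplifies type I interferon responses, was at 66.3 and 75.1 TPM in medium, 45.6, 61.9 and 53.5 TPM with the antibodies and 404, 417 and 381 TPM with TRAIL, where no library came near either other group. It rose by 2.49 ± 0.12 (adjusted p = 1.15e-05). Stat2, whose product serves the type I branch, was at 88.8 and 84 TPM in medium and 329, 343 and 299 TPM with TRAIL (1.89 ± 0.20, adjusted p = 5.63e-04). Irf1, an early target of interferon gamma, was the most abundant of the list, at 609.7 and 589.7 TPM in medium, 557, 631 and 640.3 TPM with the antibodies and 1573, 1583 and 1602 TPM with TRAIL (1.40 ± 0.072, adjusted p = 1.40e-05). Irf8, a factor of myeloid and B cells that interferon gamma also induces, was at 184 and 195 TPM in medium, 427, 514 and 511 TPM with the antibodies and 415, 398 and 403 TPM with TRAIL. Irf2 and Irf9 rose by 0.60 and 0.55. The kinase genes Jak1, Jak2 and Tyk2 did not pass, with differences of -0.48, 0.19 and -0.18.

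Antiviral genes made the largest group of rises. Of 39 tested, 36 were higher than medium and 0 lower, with a median of 1.71, and 35 passed against both other groups. With the antibodies alone 11 were higher and 19 lower than medium (median -0.43). These counts were near the shares of all tested genes in that comparison, 27.5% higher and 49.0% lower. Ifit3, whose product belongs to a family that binds foreign RNA, was at 29.7 and 33.4 TPM in medium, 15.9, 18.6 and 14.3 TPM with the antibodies and 519, 549 and 534 TPM with TRAIL, the largest rise of all genes tested (4.04 ± 0.11, adjusted p = 9.42e-07). Its near copy Ifit3b went from 6.06 and 6.15 to 107, 117 and 115 TPM, and reads of the pair may be divided between them by the counting. Both lie on chromosome 19, Ifit3 at chr19:34583531-34588731 and Ifit3b at chr19:34607970-34613401. Oasl2, a member of the oligoadenylate synthetase family, was at 41.8 and 45.1 TPM in medium, 19.3, 30.9 and 25.1 TPM with the antibodies and 534, 541 and 497 TPM with TRAIL (3.56 ± 0.16, adjusted p = 8.07e-06). Zbp1, a sensor of unusual nucleic acids that can start necroptosis, reached 909, 988 and 929 TPM from 197 and 207 TPM, with 185, 230.1 and 217 TPM for the antibodies alone (2.21 ± 0.10, adjusted p = 6.01e-06). Samhd1, which hydrolyses deoxynucleotides, was the most abundant of the list, at 1275 and 1215 TPM in medium and 2971, 3059 and 2849 TPM with TRAIL (1.25 ± 0.10, adjusted p = 1.78e-04).

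The antiviral genes did not behave alike under the antibodies alone, and this divided them into kinds. Isg15, a ubiquitin-like protein joined to other proteins, was high in both stimulated groups, at 12 and 12.2 TPM in medium, 95, 76.1 and 70.5 TPM with the antibodies and 107, 108 and 97.8 TPM with TRAIL. Bst2, Isg20 and Usp18 had the same order of levels for medium against the stimulated groups, and the difference of Bst2 between them did not pass (-0.022 for TRAIL against the antibodies alone, adjusted p = 0.793). Ifit1bl1 showed the opposite: it was at 115 and 112 TPM in medium, only 2.77, 3.76 and 2.5 TPM with the antibodies, and 269, 283 and 277 TPM with TRAIL. Ifih1 and Ddx58, sensors of viral RNA, likewise fell with the antibodies (-1.41 and -1.80) and rose over medium with TRAIL (1.43 and 0.78). Helz2, Trim25 and Sp100 did not pass against medium, with differences of 1.03, 0.39 and 0.26. Each of these passed when CD3/CD28 replicate 1 was left out, which made 39 of 39.

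**Figure D3:**
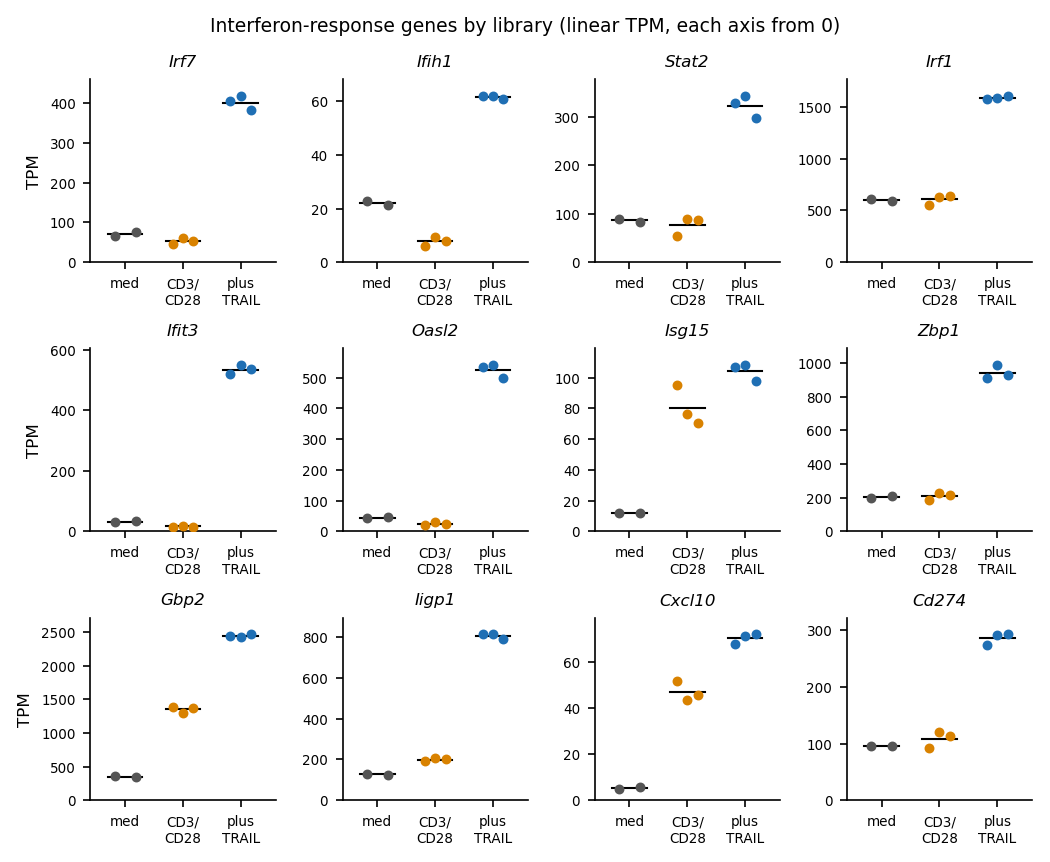
Level in TPM (y axis, linear and starting at 0, own scale per gene) of 12 interferon-response genes in each library, with 2 medium libraries (grey), 3 CD3/CD28 libraries (orange) and 3 CD3/CD28 plus TRAIL libraries (blue), and a line at each mean. In every panel the blue points lie above the grey ones. Isg15, Gbp2 and Cxcl10 are also raised in the orange points, whereas Irf7 and Ifit3 are not.

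The interferon-inducible GTPases, which attack the vacuoles of intracellular microbes, all rose: 18 of 18 were higher than medium (median 1.57) and 18 passed against both other groups. Gbp2 was the most abundant, at 357 and 348 TPM in medium, 1388, 1295 and 1373 TPM with the antibodies and 2447, 2427 and 2468 TPM with TRAIL. Its rise of 2.79 ± 0.057 passed with TRAIL above both other groups (adjusted p = 3.31e-07). Iigp1 went from 131 and 124 to 814, 813 and 793 TPM (2.65 ± 0.059, adjusted p = 3.88e-07), with 191, 205 and 201 TPM for the antibodies. Gbp5, which takes part in inflammasome assembly, was raised in both stimulated groups, to 249, 306 and 316 and to 454, 452 and 443 TPM from 87.3 and 87.2 TPM. Gbp7, Gbp8, Gbp9 and Tgtp2 were lower than medium with the antibodies alone (-1.20, -1.35, -1.43 and -1.05) and higher with TRAIL (1.96, 1.38, 1.32 and 1.27). Members of the Gbp cluster, and Tgtp1 with Tgtp2, are near-identical copies in part, so their separate levels are uncertain.

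Antigen presentation divided by class. Of the class I list, which holds heavy chains, peptide transporters and immunoproteasome subunits, 15 of 16 were higher than medium and 0 lower (median 0.83, against 0.03 with the antibodies alone). Tap1, a subunit of the peptide transporter, was at 284 and 286 TPM in medium, 275, 296 and 284 TPM with the antibodies and 545, 547 and 529.8 TPM with TRAIL (0.92 ± 0.056, adjusted p = 3.33e-05). H2-K1, a classical heavy chain gene, was at 4382 and 4614 TPM in medium and 6097, 6336 and 6259 TPM with TRAIL (0.47 ± 0.061, adjusted p = 0.00168), and fell with the antibodies to 3329, 3193 and 3219 TPM. Nlrc5, the activator of class I genes, was at 175 and 169 TPM in medium and 283, 295 and 275 TPM with TRAIL and missed the threshold (0.72 ± 0.22, adjusted p = 0.0584), with CD3/CD28 replicate 1 far below replicates 2 and 3 (67.7, 118 and 119 TPM). Of 8 class II genes, 1 passed, H2-DMa, which helps load peptides, at 97.4 and 107 TPM in medium and 190.0, 216 and 216 TPM with TRAIL. The class II counts were 3 higher and 1 lower without CD3/CD28 replicate 1. The other class II genes, H2-Ab1 (0.24), Cd74 (0.11) and Ciita (0.14) among them, did not pass against medium. All 8 were lower with the antibodies alone (median -2.04), as were all 18 B cell markers, and the part of B cells in this was not tested.

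Chemokines and inflammatory mediators were raised selectively. Of 17 chemokines tested, 6 were higher and 4 lower than medium. Cxcl10, which attracts CXCR3-bearing T cells, was at 5.01 and 5.71 TPM in medium, 51.7, 43.4 and 45.7 TPM with the antibodies and 67.7, 71.2 and 71.9 TPM with TRAIL (3.49 ± 0.093, adjusted p = 9.42e-07). Cxcl9, a second ligand of the same receptor, followed the same order, with 1.09 and 0.8 TPM in medium, 10.3, 10.2 and 8.69 TPM with the antibodies and 17.1, 13.9 and 15.5 TPM with TRAIL. Xcl1 was also above both groups, whereas Ccl3, Ccl4 and Ccl24 lay between medium and the antibodies alone, with rises of 1.14, 0.95 and 1.68 with TRAIL and 2.03, 2.86 and 4.42 without it. The monocyte and myeloid chemokines Ccl2, Ccl6, Ccl7 and Ccl9 were lower than medium, with differences of -1.04, -1.04, -1.51 and -1.31.

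Of 24 inflammatory genes best known from myeloid cells, 17 were higher than medium and 1 lower (median 1.01). Nos2, the inducible nitric oxide synthase, was at 0.193 and 0.191 TPM in medium, 15.2, 22.1 and 24.2 TPM with the antibodies and 17.3, 15.9 and 14.3 TPM with TRAIL (3.82 ± 0.18, adjusted p = 9.44e-06). TRAIL and the antibodies alone did not pass the test of their difference for this gene (-0.33, adjusted p = 0.0964). Ptgs2, the inducible cyclooxygenase that starts prostaglandin synthesis, was at 3.49 and 3.7 TPM in medium, 24.7, 27.9 and 29.7 TPM with the antibodies and 50.6, 47.3 and 52.9 TPM with TRAIL. Ptges, the synthase that makes prostaglandin E2 from its product, was not raised by the antibodies: it was at 3.3 and 3.69 TPM in medium, 1.68, 2.52 and 1.96 TPM with the antibodies and 30.3, 27.4 and 27.7 TPM with TRAIL (2.71 ± 0.13, adjusted p = 9.44e-06).

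Il1b and Il1a, the genes of interleukin 1, also rose with TRAIL and not with the antibodies. Il1b was at 40.8 and 46.9 TPM in medium, 43.7, 30.7 and 37.6 TPM with the antibodies and 149.9, 145 and 162 TPM with TRAIL (1.77 ± 0.14, adjusted p = 1.35e-04). Acod1, which makes itaconate in activated macrophages, went from 14.1 and 16.3 to 66, 71.6 and 70.9 TPM (2.12 ± 0.084), and Il1rn, the natural antagonist of interleukin 1, from 45.6 and 50.8 to 140.5, 144 and 144 TPM (1.55 ± 0.066). Tnf rose by 1.00 ± 0.14, being at 19.6 and 20.3 TPM in medium and 39.4, 41.6 and 42.1 TPM with TRAIL. Il12a rose by 1.13 and Il12b, which encodes the other chain of interleukin 12, fell by 1.85, from 8.05 and 6.46 to 1.5, 1.46 and 0.932 TPM. Myeloid cells are known to make these products. With TRAIL, 11 of the 19 macrophage and monocyte markers were lower than medium and 2 higher. Their sum was 2111 to 2257 TPM in medium, 259.9 to 276 TPM with the antibodies and 1423 to 1580.2 TPM with TRAIL. The sum with TRAIL was thus below medium and above the antibodies alone. Within it, Lyz2 fell from 720.0 and 774 TPM in medium to 146, 147 and 179 TPM with TRAIL. Which cells carried the inflammatory transcripts was not tested.

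NF-kB subunits and targets rose by small amounts, with 12 of 20 higher than medium and 0 lower (median 0.37). The fit without CD3/CD28 replicate 1 called 17 higher and 0 lower. Bcl3 (0.72) and Nfkb2 (0.67) and the feedback inhibitors Tnfaip3 (0.65) and Nfkbia (0.56) had the largest rises. Tnfaip3 was at 109 and 121 TPM in medium, 95, 124 and 123 TPM with the antibodies and 170.4, 178 and 191 TPM with TRAIL. The subunit genes Rela, Rel and Nfkb1 did not pass.

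The part of T cell stimulation that was still present with TRAIL was selective. Of 23 cytokine and effector genes, 12 were higher than medium and 0 lower (median 0.53), against 20 higher and 1 lower with the antibodies alone (median 2.16). None lay above both groups. CD8 T cells and natural killer cells also make some of these products. Their markers summed to 242 to 275 TPM in medium, 342 to 419 TPM with the antibodies and 206 to 214 TPM with TRAIL. Within this sum Klrd1 fell from 133 and 109 TPM in medium to 47.8, 45.9 and 48.2 TPM with TRAIL. Of the 9 markers, 3 were higher than medium with TRAIL and 1 lower, and the part of these cells was not tested. Gzmb, the granzyme of cytotoxic granules, was at 12.5 and 14.1 TPM in medium, 1571, 1614 and 1517 TPM with the antibodies and 63.9, 66.7 and 55.2 TPM with TRAIL, so that it rose over medium by 2.14 ± 0.092 (adjusted p = 6.01e-06) where the antibodies alone gave 6.78. Gzmc, another granzyme, was at 0.53 and 0.75 TPM in medium, 6.08, 6.18 and 6.64 TPM with the antibodies and 5.69, 4.77 and 4.96 TPM with TRAIL, and its difference between the stimulated groups did not pass (-0.25, adjusted p = 0.0528). Csf2, which encodes the myeloid growth factor GM-CSF, went from 1.61 and 1.3 to 8.08, 11.4 and 9.42 TPM with TRAIL (2.11 ± 0.17) and to 26.4, 24.2 and 19.4 TPM without it. Il22, a cytokine that acts on epithelia, was at 8.85, 15.7 and 7.53 TPM with TRAIL, with replicate 2 above the others, at 34.5 ± 4.38 (SD, n = 3) TPM without it and at 1.34 and 1.01 TPM in medium.

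Other cytokines gave small differences from medium or none that passed. Il21, a helper cytokine for B cells, was at 0.239 and 0.113 TPM in medium, 444, 427 and 428 TPM with the antibodies and 1, 0.831 and 0.863 TPM with TRAIL. The difference from medium passed (0.69 ± 0.086, adjusted p = 0.00138) at a level near 1 TPM. Il2, the T cell growth factor, was at 1.24 and 1.04 TPM in medium, 22.2, 12.3 and 9.03 TPM with the antibodies and 1.05, 0.458 and 0.332 TPM with TRAIL, and the difference between TRAIL and medium did not pass (-0.43 ± 0.34, adjusted p = 0.437). Il4, Il5, Il3, Il17a and Lta were raised by the antibodies alone by 2.91, 2.76, 1.62, 1.93 and 2.16, and did not pass against medium with TRAIL, with differences of 0.53, 0.046, 0.18, 0.37 and 0.17. Il13 passed at a low level, 1, 1.74 and 1.79 TPM, against 44.8, 49.2 and 42.7 TPM with the antibodies alone. Lif passed at 4.2, 4.12 and 3.83 TPM, against 101, 117 and 112 TPM.

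Among regulators of helper lineages the Th1 branch, which drives interferon gamma production, held the largest rises. Of 19 tested, 7 were higher than medium and 0 lower (median 0.16). The counts without CD3/CD28 replicate 1 were 9 higher and 1 lower. Tbx21, the T-bet gene, was at 5.25 and 4.97 TPM in medium, 111, 122 and 125 TPM with the antibodies and 22.8, 22.1 and 23.4 TPM with TRAIL (1.96 ± 0.077, adjusted p = 5.06e-06). Il12rb2, a receptor chain for interleukin 12, rose from 6.05 and 5.03 TPM in medium to 37.8, 34.9 and 31.3 TPM with TRAIL, and was at 141, 204 and 222 TPM with the antibodies alone. Il12rb1, the other chain, rose from 8.35 and 10.9 to 36.1, 34.5 and 34.3 TPM, and was at 156, 199.5 and 203 TPM with the antibodies alone. Eomes, related to T-bet, was higher with TRAIL than in both other groups, at 9.79 and 10.4 TPM in medium, 11.3, 13.6 and 11.6 TPM with the antibodies and 20.4, 21.8 and 21.2 TPM with TRAIL. Of the regulators of other lineages, Gata3, Foxp3 and Bcl6 did not pass, with differences of 0.16, 0.11 and 0.10. The antibodies alone gave 1.63, -1.24 and -3.08 for these genes. Among all 19, 4 passed above both other groups, and not every member called higher is named here.

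Surface receptors of activation were divided, and 9 of 20 were higher than medium and 3 lower (median 0.28, against 1.38 with the antibodies alone). The receptor counts were 11 higher and 5 lower without CD3/CD28 replicate 1. Cd69, an early marker that retains cells in tissue, was at 52.7 and 57.1 TPM in medium, 504, 473 and 462 TPM with the antibodies and 116, 122 and 141 TPM with TRAIL (1.18 ± 0.092, adjusted p = 1.29e-04). Tnfrsf9, the 4-1BB costimulatory receptor, was at 68.9 and 72.8 TPM in medium, 449, 431 and 446 TPM with the antibodies and 157, 158 and 151 TPM with TRAIL. Il2ra, the high-affinity chain of the interleukin 2 receptor, was at 79.4 and 73.9 TPM in medium, 764, 984 and 969 TPM with the antibodies and 128, 126 and 117 TPM with TRAIL (0.68 ± 0.11, adjusted p = 0.00542). Receptors that fell below medium were Cd40lg, which gives help to B cells, from 83.2 and 85 to 36.7, 34.8 and 43.2 TPM (-1.12 ± 0.10), Cd5 (-0.41) and the transferrin receptor gene Tfrc (-0.26). Cd5 and Tfrc were higher than medium with the antibodies alone (0.82 and 2.24).

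Of 24 immediate early and activation transcription factors, 4 were higher and 3 lower, where 7.25% and 9.93% of all tested genes were higher and lower. Jun, a subunit of AP-1, lay above both groups, and 2 members, Nr4a2 and Dusp2, below both. Jun was at 40.1 and 47.6 TPM in medium, 119.8, 142 and 131 TPM with the antibodies and 222, 241 and 268 TPM with TRAIL (2.45 ± 0.11, adjusted p = 8.15e-06). Its partner Fos fell from 25.5 and 19.8 to 8.42, 7.58 and 9.28 TPM (-1.32 ± 0.21, adjusted p = 0.00413), and was at 13.2, 11.4 and 7.77 TPM with the antibodies. Irf4, which follows the strength of the antigen receptor signal, was at 44.7 and 46.2 TPM in medium, 554, 741 and 774 TPM with the antibodies and 56.5, 56.5 and 55.3 TPM with TRAIL and did not pass against medium (0.30 ± 0.13, adjusted p = 0.166). Nr4a1, induced by the same signal, was at 36 and 36.6 TPM in medium, 209, 241 and 209.7 TPM with the antibodies and 44.5, 46.7 and 41.9 TPM with TRAIL, which did not pass against medium (adjusted p = 0.0539). Myc was at 117 and 139 TPM in medium and 122, 139.9 and 135 TPM with TRAIL, with a difference of 0.053 ± 0.10, against 2.27 with the antibodies alone. Without CD3/CD28 replicate 1 the list counted 11 higher and 6 lower, against 14.7% and 23.9% of all tested genes.

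**Figure D4:**
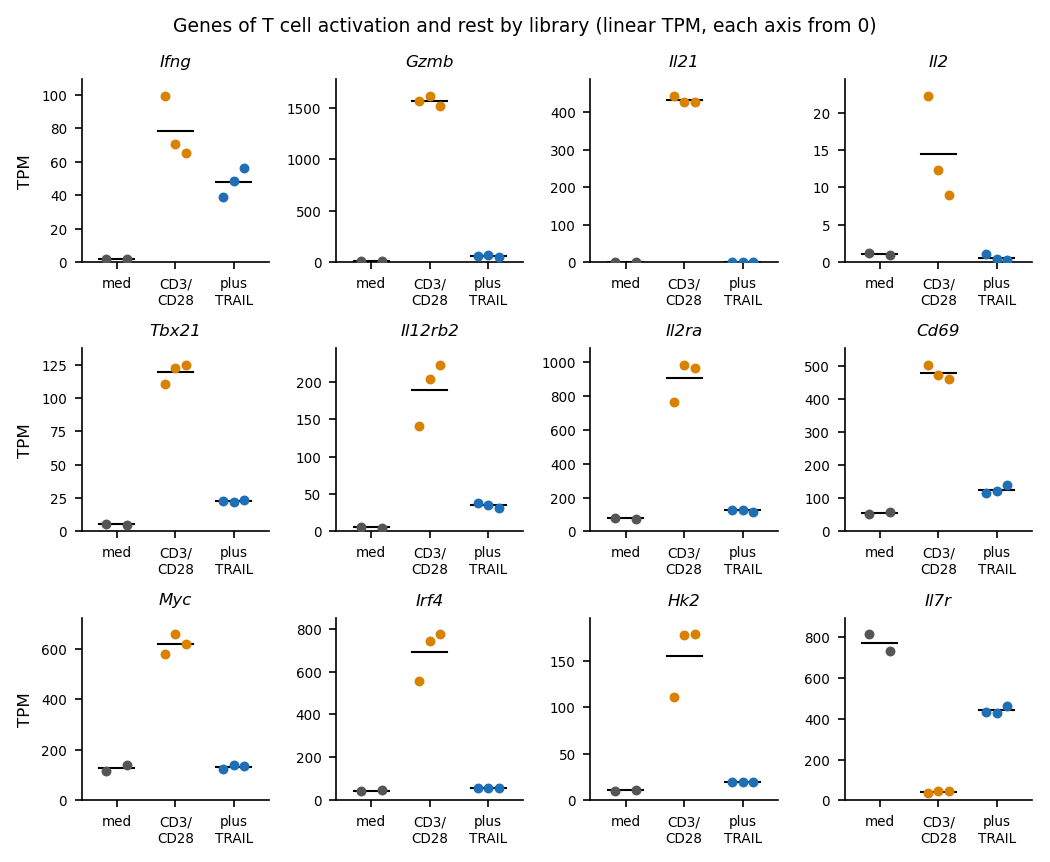
Level in TPM (y axis, linear and starting at 0, own scale per gene) of 12 genes of T cell activation and rest in each library, with 2 medium libraries (grey), 3 CD3/CD28 libraries (orange) and 3 CD3/CD28 plus TRAIL libraries (blue), and a line at each mean. With TRAIL, Ifng lies well above medium, Gzmb, Tbx21, Il12rb2 and Cd69 lie above medium but nearer to it than to the antibodies alone, and Il2 and Myc lie at or near medium.

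Of 18 brakes on cytokine and T cell signalling, 7 were higher than medium and 3 lower, against 7.25% and 9.93% of all tested genes. These counts became 9 higher and 6 lower without CD3/CD28 replicate 1. Cd274, the gene of PD-L1, through which cells restrain T cells bearing PD-1, was at 96.2 and 96 TPM in medium, 92, 119.7 and 114 TPM with the antibodies and 274, 291 and 293 TPM with TRAIL, above both groups. Socs1, the inhibitor of JAK signalling that interferons induce, was at 25.8 and 28.6 TPM in medium, 133, 100.3 and 90.5 TPM with the antibodies and 89.8, 90.1 and 91.4 TPM with TRAIL, and Socs3 at 462 and 553 TPM in medium, 573, 647 and 533 TPM with the antibodies and 859, 935 and 922 TPM with TRAIL. Lag3, an inhibitory receptor, rose to 30.4, 27.7 and 25.3 TPM from 7.37 and 7.68 TPM and was at 406, 416 and 424 TPM with the antibodies alone. Pdcd1, Tigit and Havcr2 did not pass (0.075, 0.16 and 0.20). Rnf128, a ubiquitin ligase linked to anergy, fell from 16 and 17.2 to 4.16, 3.62 and 4.1 TPM, and Dgka and Btla fell by 0.45 and 0.37.

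Genes of rest in naive T cells were called lower more often than higher. Of 25 tested, 7 were lower than medium and 1 higher (median -0.29), against 21 lower and 4 higher with the antibodies alone (median -2.09). Without CD3/CD28 replicate 1, 18 were called lower and 3 higher. Il7r, the receptor for the survival cytokine interleukin 7, was at 816 and 731 TPM in medium, 36.4, 46.1 and 46.3 TPM with the antibodies and 436, 430.3 and 463 TPM with TRAIL (-0.80 ± 0.11, adjusted p = 0.00239). S1pr1, needed to leave lymphoid tissue, was at 456 and 479.8 TPM in medium, 27.7, 36.9 and 26.1 TPM with the antibodies and 325, 339 and 348 TPM with TRAIL (-0.47 ± 0.13, adjusted p = 0.0443). Dapl1 had the largest fall of the list, from 68.4 and 80.3 to 30.6, 26.7 and 34.8 TPM (-1.25 ± 0.13). Igfbp4 went against the list, at 68.5 and 85.6 TPM in medium, 424, 403 and 379.6 TPM with the antibodies and 182, 181 and 177 TPM with TRAIL.

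Of the growth and division lists, the cell cycle held the most rises and the largest median, and the others had medians of 0.1 to 0.21. Of 40 cell cycle genes 26 were higher than medium and 0 lower (median 0.49, against 1.76 with the antibodies alone, where 37 were higher). The cell cycle counts were 36 higher and 1 lower without CD3/CD28 replicate 1. Top2a, a topoisomerase of dividing cells, was at 28.6 and 27.8 TPM in medium, 108, 138 and 127 TPM with the antibodies and 59.3, 54.8 and 55.1 TPM with TRAIL (0.98 ± 0.10, adjusted p = 5.90e-04). Ccnd2, a cyclin of entry into the cycle, was at 251 and 249 TPM in medium, 998, 1488 and 1472 TPM with the antibodies and 500.3, 480.2 and 458 TPM with TRAIL. Mki67 did not pass (0.52 ± 0.37, adjusted p = 0.39), and its CD3/CD28 values of 21.4, 58.7 and 54.4 TPM were widely apart.

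Of 19 glycolysis genes, 9 were higher than medium and 1 lower (median 0.21, against 2.37 with the antibodies alone). The glycolysis counts were 13 higher and 2 lower without CD3/CD28 replicate 1. Hk2, the inducible hexokinase, was at 10.3 and 10.8 TPM in medium, 111, 177 and 179 TPM with the antibodies and 20.1, 19.7 and 19.8 TPM with TRAIL. Of the other growth lists, ribosome biogenesis and MYC targets had 7 of 30 higher and 1 lower (median 0.12, against 1.53). Leaving out CD3/CD28 replicate 1 gave 14 higher and 2 lower for this list. Sterol synthesis had 2 of 22 higher and 0 lower (median 0.10, against 1.14), where 7.25% of all tested genes were higher. The sterol counts without that library were 6 higher and 1 lower. The amino acid and endoplasmic reticulum stress response had 8 of 26 higher and 2 lower (median 0.17, against 2.35). The counts of this response without that library were 11 higher and 3 lower. Odc1, a MYC target that makes polyamines, went from 148 and 158 to 289, 269 and 275 TPM (0.85 ± 0.060) and had the largest rise of these 3 lists.

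Some genes lay outside both other groups without belonging to the interferon response by name. The 15 largest below both were Gm23864, Dhrs13, Ptgfrn, Trib3, P4ha2, Trav13n-3, Ddr1, Rgs11, Fabp5, Mir7063, Gstm1, Gpr162, Gpr83, Amz1 and Cd28. Trib3, a pseudokinase induced by the ATF4 stress pathway, was at 34.2 and 31.9 TPM in medium, 115, 106 and 106 TPM with the antibodies and 15.6, 14.7 and 16 TPM with TRAIL (-1.05 ± 0.073 against medium, adjusted p = 7.46e-05, and -2.74 against the antibodies). Ddr1, a collagen receptor, was at 20.5 and 18.4 TPM in medium, 48.4, 56.9 and 56.5 TPM with the antibodies and 9.93, 9.15 and 9.48 TPM with TRAIL. Gm23864, a small nuclear RNA gene at chr17:35699203-35699309, lies inside Ddr1 on the same strand, so their falls are not separate measurements with certainty. Cd28, the receptor that one of the antibodies binds, was at 225 and 192 TPM in medium, 228, 263 and 254 TPM with the antibodies and 134, 130.0 and 125 TPM with TRAIL (-0.67 ± 0.090, adjusted p = 0.00197). Fabp5, a fatty acid carrier, was at 56.3 and 68 TPM in medium, 80.7, 67.4 and 70.8 TPM with the antibodies and 35.4, 37.1 and 36.1 TPM with TRAIL. Dhrs13, a dehydrogenase or reductase by name, showed no difference between medium and the antibodies that passed (0.15) and fell from 10.6 and 12.4 to 4.99, 4.75 and 4.54 TPM.

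Above both, Inhba, an activin subunit, was at 1.93 and 2.01 TPM in medium, 4.84, 6.63 and 6.94 TPM with the antibodies and 19, 18.9 and 20.5 TPM with TRAIL. Procr, the endothelial protein C receptor, was at 6.09 and 6.14 TPM in medium, 30.9, 27.5 and 31 TPM with the antibodies and 59.1, 54.4 and 62 TPM with TRAIL, and Slc7a2, a transporter of arginine, at 1.02 and 0.98 TPM in medium, 7.17, 8.94 and 9.95 TPM with the antibodies and 15.5, 15.2 and 14 TPM with TRAIL. Rnf213, a very large ubiquitin ligase, was at 73.4 and 77.7 TPM in medium, 19.6, 67.6 and 58.5 TPM with the antibodies and 382, 391 and 347 TPM with TRAIL, and the wide error of its rise (2.29 ± 0.44, adjusted p = 0.0105) comes with CD3/CD28 replicate 1. Gm6545, a processed pseudogene at chr19:12528755-12530540, and Gm47242, a long intergenic RNA at chr19:12539588-12540823, lie near each other on chromosome 19. Gm6545 went from 15.5 and 14.2 TPM in medium to 118, 124 and 109.7 TPM with TRAIL. Gm47242 went from 13.3 and 12.9 TPM to 128, 116 and 112 TPM. Gm5970, a processed pseudogene, lies inside Gm4951 on the same strand, so their rises of 2.92 and 3.02 are not separate measurements with certainty.

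Genes of TRAIL itself and of the death machinery were mostly not called, with 4 of 21 higher, 1 lower and a median of 0.01. The death list counted 6 higher and 3 lower without CD3/CD28 replicate 1. Tnfrsf10b, the mouse TRAIL death receptor, was at 4.8 and 5.14 TPM in medium, 7.69, 10.2 and 9.43 TPM with the antibodies and 4.8, 4.67 and 4.91 TPM with TRAIL (-0.043 ± 0.12, adjusted p = 0.86). Tnfsf10, which encodes TRAIL, was above both groups, at 20.9 and 20.00 TPM in medium, 8.15, 9.37 and 8.8 TPM with the antibodies and 32.9, 33.4 and 30.8 TPM with TRAIL (0.64 ± 0.083, adjusted p = 0.00176). Mlkl, the executor of necroptosis, rose from 5.45 and 5.69 to 18.4, 16.9 and 16.6 TPM (1.48 ± 0.12), and was at 18.4, 24.3 and 21.4 TPM with the antibodies. Fas, a death receptor gene, rose by 0.44, and the receptor gene Tnfrsf26 fell by 0.40. Casp8, Fadd and Cflar did not pass (0.15, 0.051 and 0.057). Of the decoy receptor genes, Tnfrsf22 and Tnfrsf23 did not pass (-0.39 and -0.21).

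In the BCL2 family and among caspase inhibitors 5 of 14 were higher and 2 lower. This family counted 6 higher and 4 lower without CD3/CD28 replicate 1. The survival genes Mcl1 (0.35), Bcl2l1 (0.31), Birc2 (0.29) and Birc3 (0.44) and the death effector Bak1 (0.51) rose. Mcl1 was by far the most abundant, at 1103 and 1112 TPM in medium, 653, 692 and 676 TPM with the antibodies and 1401, 1381 and 1449.5 TPM with TRAIL. The death initiators Bbc3 and Bmf fell by 0.70 and 0.54, Bbc3 from 50.9 and 53.1 to 28.3, 31.9 and 35.3 TPM.

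Markers of other cells moved beside these groups. T cell identity genes had 3 of 20 lower than medium and 0 higher, where 9.93% of all tested genes were lower. With CD3/CD28 replicate 1 left out, 2 higher and 14 lower were called. B cell markers summed to 5284 to 5304 TPM in medium, 1144 to 1217 TPM with the antibodies and 4891 to 4949 TPM with TRAIL. Of 18 B cell markers 4 were lower than medium with TRAIL, among them Cr2 and Fcer2a (-1.07 and -1.06), and Ms4a1 was at 141 and 134 TPM in medium and 137, 135 and 138 TPM with TRAIL, which did not pass. With that library left out, the B cell counts were 2 higher and 11 lower. With the antibodies alone all 18 were lower.

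Most myeloid markers fell with TRAIL. Of 19 macrophage and monocyte markers 11 were lower than medium and 2 higher (median -0.48, against -2.34 with the antibodies alone). Without CD3/CD28 replicate 1 the macrophage counts were 4 higher and 12 lower. Lyz2, the macrophage lysozyme, was at 720.0 and 774 TPM in medium, 6.5, 7.59 and 5.05 TPM with the antibodies and 146, 147 and 179 TPM with TRAIL (-2.25 ± 0.15, adjusted p = 6.06e-05). Mrc1, the mannose receptor of resident macrophages, fell from 9.02 and 8.83 to 0.834, 1.28 and 0.98 TPM. The 2 that rose, Ly6c2 and Cd14, are known from monocytes and respond to inflammation: Ly6c2 was at 36.7 and 38.1 TPM in medium, 21.7, 19.96 and 17.2 TPM with the antibodies and 84.9, 78.6 and 81.5 TPM with TRAIL, and Cd14 at 15 and 16.4 TPM in medium, 4.25, 3.91 and 4.11 TPM with the antibodies and 28, 32.2 and 33.3 TPM with TRAIL. All 6 tested genes of red pulp macrophages and iron handling fell, among them Slc40a1, the iron exporter, from 52.5 and 54.7 to 8.47, 9.65 and 10.9 TPM (-2.36 ± 0.13). Spic, which defines the red pulp macrophages of spleen, was at 28.8 and 29.3 TPM in medium, in libraries labelled lymph node.

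Of 14 neutrophil markers 10 fell and 0 rose. The neutrophil counts were 0 higher and 13 lower without CD3/CD28 replicate 1. The granule genes of precursors, Elane, Mpo and Prtn3, fell by 1.97, 1.86 and 1.67, and S100a8 and S100a9 did not pass (-0.42 and -0.41). Ppbp, a platelet chemokine gene, had the largest fall of all genes tested, from 20.9 and 23.3 to 1.43, 0.899 and 1.64 TPM (-3.33 ± 0.16, adjusted p = 8.81e-06) and the related Pf4 went from 70.3 and 74.4 to 6.39, 7.61 and 7.38 TPM (-3.18 ± 0.25, adjusted p = 1.48e-04). The platelet integrin genes Itga2b and Itgb3 did not pass (-0.31 and 0.53). Igf1, a growth factor of macrophages and stroma, fell as far, from 20.7 and 21.6 to 1.22, 1.22 and 1.17 TPM (-3.33 ± 0.10). Klrd1, a receptor of natural killer cells, fell from 133 and 109 to 47.8, 45.9 and 48.2 TPM, while Ncr1, which defines those cells in mice, was at 8.21 and 6.76 TPM in medium and 8.64, 10.6 and 8.7 TPM with TRAIL and did not pass (0.28 ± 0.12). Of 5 platelet and megakaryocyte markers tested 3 fell, and of 6 dendritic cell markers 1 fell. CD8 T cell and natural killer cell markers gave 3 rises and 1 fall in 9, and plasma cell markers 1 rise in 4. The 4 erythroid markers and 1 stromal marker gave no call, and mast cell and basophil markers gave 2 rises and 1 fall in 7. No marker of these lists was at 0 in every medium or every TRAIL library. Without CD3/CD28 replicate 1 the platelet markers counted 1 higher and 4 lower, the erythroid markers 0 higher and 3 lower, the stromal marker 1 higher and 0 lower, the mast cell and basophil markers 2 higher and 2 lower and the CD8 T cell and natural killer cell markers 3 higher and 2 lower. The part of these cells in the differences described above was not tested.

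**Figure D5:**
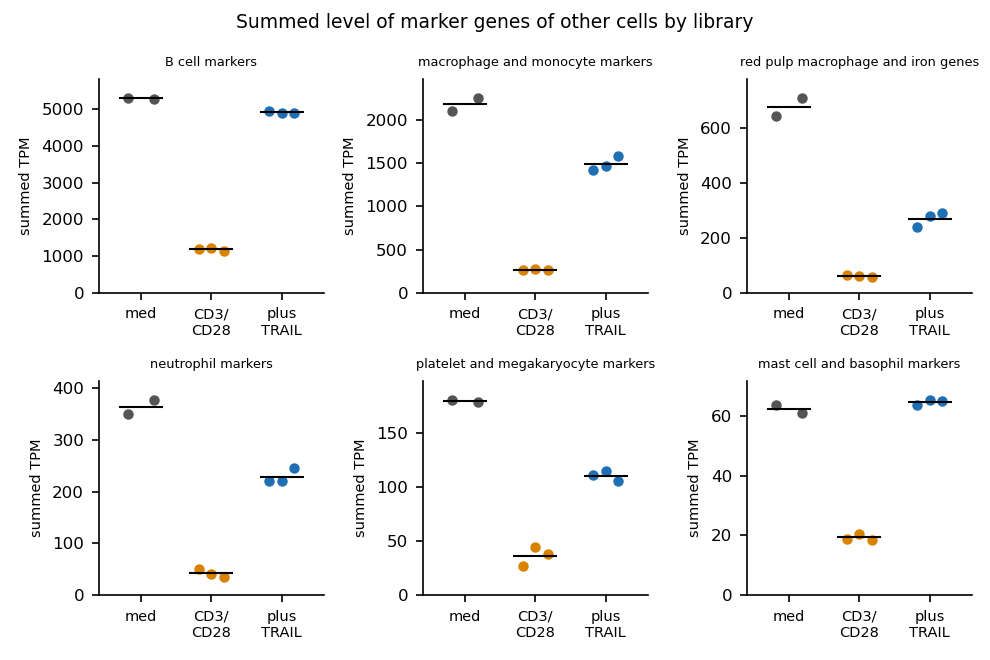
Summed TPM (y axis, linear and starting at 0) of the marker genes of 6 other cell types in each library, with 2 medium libraries (grey), 3 CD3/CD28 libraries (orange) and 3 CD3/CD28 plus TRAIL libraries (blue), and a line at each mean. In all 6 panels the antibodies alone lie lowest. With TRAIL, B cell markers sum to 4891 to 4949 TPM, against 5284 to 5304 TPM in medium, and macrophage markers to 1423 to 1580 TPM, against 2111 to 2257 TPM. The macrophage sum includes the abundant Lyz2, whose fall with TRAIL is given in the text.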

How the data were processed

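RNA-seq values came from the culture table as deposited, in transcripts per 1000000 (TPM) per gene, made by the authors. Per the submitters' processing notes, bcl2fastq, Trimmomatic 0.36, HISAT2 2.1.0, SAMtools 1.2, StringTie 2.1.4 and DESeq2 1.26.0 were used with build GRCm38.p6; their roles and the strand of counting are not given in the sources used here, so overlapping genes cannot be told apart. The deposited gene length, in bases, multiplied by TPM gave whole multiples of 1 step in each library, from which reads and depth were recovered. Groups were taken from the labels; medium replicate 2 carries the number 3 in its bracketed name. Levels were analysed as log2(TPM + 1) for genes with a mean of at least 1 TPM, in 1 limma fit (3.58.1, R 4.3.3, variance trend, 5 residual degrees of freedom) over all 8 culture libraries, without a replicate block. Benjamini-Hochberg adjustment ran over the 14035 genes tested, two-sided, with a threshold of 0.05. Errors are standard errors of the log2 difference. The fit was tested on simulated data. The deposited fold changes and the libraries from mice were not used here. Genes named are the 25 largest rises and falls, 15 genes a side outside both groups, 15 a side between them, and members of 34 gene lists (601 genes in all). The lists and members were chosen with earlier results of these data known, so their counts are descriptions and not independent evidence. The 599 distinct genes of the lists gave 560 tested. Ifnb1, Ifna2, Ifna4 and Aldoa were not analysed here. Near-identical copies (Ifit3 and Ifit3b, Tgtp1 and Tgtp2, H2 genes) have uncertain separate levels. Alternatives were another pseudocount, filter, scaling, variance model and set of libraries, voom on the recovered reads, a replicate block, and leaving out each library in turn.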

Additional observations from a re-analysis of the deposited data

How the results depend on the processing

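Against medium, the counts of 1017 higher and 1394 lower genes stayed within 1.5 times under a pseudocount of 0.1, no filter, a filter of 5 TPM, median-of-ratios scaling, no variance trend and voom on the recovered reads, as did the 448 genes above and the 174 below both other groups. Fitting only the 5 libraries of these 2 groups, without CD3/CD28, called 1910 higher and 3168 lower. Leaving out 1 library at a time gave 467 to 2063 higher, 448 to 3353 lower, 267 to 825 above both and 46 to 565 below both, lowest without medium replicate 1 and highest without CD3/CD28 replicate 1; where 1 medium library is left, it is assumed to vary like the other groups. Same-numbered libraries did not deviate together (correlations of -0.134 to 0.0777 by the numbers of the titles), so the labels' numbers were not taken as pairs. With the title number as a replicate block, 623 genes were higher, 733 lower and 74 below both; with the bracketed number as the replicate block, 661, 888 and 85. The cause of these moves was not tested. Of the 601 named genes, 323 were called against medium. None reversed direction in any of these settings, and between 0 and 95 lost the call, 95 of them without medium replicate 1 and 78 without medium replicate 2. With 2 medium libraries, differences near the threshold are the least certain.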
